A study of Mus musculus with 2 samples.

Results

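Regnase-1, the Roquins and NF-κB genes are 8 genes of post-transcriptional and NF-κB control: Zc3h12a, Zc3h12d, Rc3h1, Rc3h2, Malt1, Nfkbiz, Nfkbid and Rel. They were taken as a named list, not from measured values, and all 8 were found among the 20794 genes of the RNA matrix. Each was described over all cells, over the larger T cell receptor families, and in cells with against cells without a UMI of Zc3h12a at matched depth. A UMI is a molecular barcode that marks 1 captured RNA molecule.

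Regnase-1, encoded by Zc3h12a, is an RNase that binds stem-loops in the 3′ untranslated regions of messenger RNAs and degrades them. The Roquins, encoded by Rc3h1 and Rc3h2, bind related stem-loops and recruit the deadenylation machinery. In T cells, antigen receptor signals activate the protease MALT1, which cleaves Regnase-1 and the Roquins and so spares their target transcripts. Known targets in T cells include Icos, Il2, Rel, Nfkbid and Nfkbiz, and the Zc3h12a transcript is itself among the transcripts that Regnase-1 binds. Rel, Nfkbid and Nfkbiz encode c-Rel, IκBNS and IκBζ, a subunit and a pair of nuclear regulators of NF-κB.

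The cells are GD2TIF cells, mouse T cells with a Cas9 transgene that were activated and given a retrovirus directed against Bcor and Zc3h12a, which also delivered 14g2a, a chimeric antigen receptor against the ganglioside GD2. Each immunocompetent C57BL/6 recipient got 1000000 cells, and 2 months later CD8+Thy1.1+ GD2TIF cells were sorted from spleen. One RNA library and 1 T cell receptor library were made from them, with no unedited, untransferred or other comparison group. No source used here says how many mice the library came from. The levels below therefore cannot be set against cells with intact Zc3h12a. A Cas9 edit need not remove a transcript, and which cells carry which edit is not in the RNA counts, so the Zc3h12a level does not check the edit.

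The 10338 cells that passed the filters held 22280465 UMIs. The median cell had 1922 UMIs, and depth ran between 815 UMIs at the 5th percentile and 4244 UMIs at the 95th. A pair or more of 8 T cell markers (Cd3d, Cd3e, Cd3g, Cd8a, Cd8b1, Trac, Trbc1 and Trbc2) was found in 99.1% of cells. Only Cd8a and Cd8b1 of these are CD8 genes, so this share speaks of T cells at large. Cd8a and Cd8b1 stood at 208 and 407 counts per 1000000 UMIs (CPM), while Cd4 stood at 0.628 CPM. Cells with 2 or more B cell markers made up 10.3%, led by Ighm at 561 CPM, with Cd79a at 4.04 CPM. No cell type that should lack these genes was at hand to measure free RNA, so a share of cells with a UMI is not read as a share of expressing cells. In the 49 cells with 3 or more B cell markers, Zc3h12a stood at 50.8 CPM (22.0 to 100.2, from 8 UMIs), and Nfkbid at 63.6 CPM (30.5 to 117, from 10 UMIs). With 1 library there is no replicate and no test, and every interval is a 95% interval of counting error only.

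Promoter sequence from RefSeq (GRCm38.p6) was on hand for 6 of the 8 genes, in 8 windows of 250 bases before a transcript start. They were searched on both strands for the 10-letter kappa B consensus, to which NF-κB dimers bind. A match was found in 2 of these 8 windows, those of Rel and of 1 of the 3 Nfkbid starts, and in 7.25% of all 32851 windows in the table. Rel and Nfkbid are shown because they had the largest folds of the 7 other genes in cells with a Zc3h12a UMI, and Zc3h12a because it sets that comparison. Matches are in capitals and each sequence is written 5′ to 3′ on the gene's own strand. The Rel window, chr11:23770970-23771219 on the minus strand, holds a pair of matches that overlap, starting 92 and 91 bases before the start. The Zc3h12a window, chr4:125127882-125128131 on the minus strand, holds none of these letters.
Rel: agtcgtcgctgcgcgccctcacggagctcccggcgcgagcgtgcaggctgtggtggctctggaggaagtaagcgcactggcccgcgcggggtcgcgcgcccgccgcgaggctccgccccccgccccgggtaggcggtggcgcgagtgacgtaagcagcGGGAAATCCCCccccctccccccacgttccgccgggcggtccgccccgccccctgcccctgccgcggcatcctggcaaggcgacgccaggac
Zc3h12a: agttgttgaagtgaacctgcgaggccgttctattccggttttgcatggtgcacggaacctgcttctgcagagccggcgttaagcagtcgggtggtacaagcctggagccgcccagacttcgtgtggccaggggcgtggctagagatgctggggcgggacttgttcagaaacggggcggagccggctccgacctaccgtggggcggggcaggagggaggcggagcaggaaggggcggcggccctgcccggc
The Nfkbid matches begin 226 and 181 bases before a start that lies within the annotated gene, and are shown with 10 bases on either side, from chr7:30422170-30422199 and chr7:30422215-30422244 on the plus strand.
Nfkbid, 226 bases before: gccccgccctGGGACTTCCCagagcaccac
Nfkbid, 181 bases before: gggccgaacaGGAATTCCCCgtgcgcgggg
A match is a description of the letters in the window and shows no binding.

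Over all cells, Nfkbiz was by far the most abundant of the 8 transcripts and Nfkbid the least. The levels are in CPM, the UMIs of a gene over those of all genes, and each captured molecule counts once whatever its length. Nfkbiz, which encodes the IκBζ cofactor, stood at 337 CPM (330 to 345, from 7515 UMIs). Malt1, the protease that cleaves the regulators, followed at 81.4 CPM (77.7 to 85.2), and Rel at 73.2 CPM (69.7 to 76.8). Among the RNA-binding regulators, Rc3h1 stood at 48.3 CPM (45.5 to 51.3) and Zc3h12a at 47.4 CPM (44.6 to 50.4, from 1057 UMIs), and these intervals overlapped. Rc3h2, the Roquin-1 paralog, stood at 38.2 CPM (35.7 to 40.9). Zc3h12d, which encodes Regnase-4, another member of the Regnase family, stood at 32.0 CPM (29.7 to 34.5). Nfkbid stood at 18.4 CPM (16.6 to 20.2). Apart from Rc3h1 and Zc3h12a, no neighbours in this order of levels had overlapping intervals. The other Regnase genes were scarce, beside a 3-count floor of 0.135 CPM, with 12 UMIs of Zc3h12c and 1 UMI of Zc3h12b in the whole library.

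**Figure D1:**
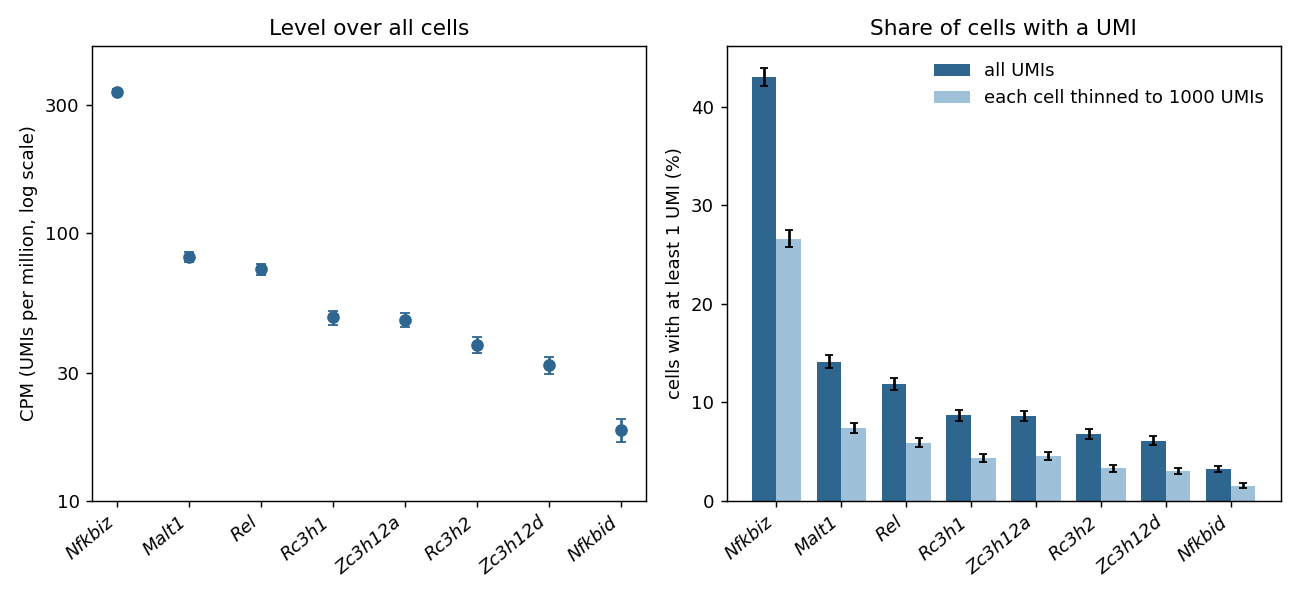
The 8 genes over all 10338 cells. Left, level in CPM on a log axis with exact Poisson 95% intervals; right, percent of cells with at least 1 UMI, with all UMIs and after thinning each cell to 1000 UMIs, with exact binomial 95% intervals. Nfkbiz stands at 337 CPM, above the range of 18.4 to 81.4 CPM of the other genes.

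Most single cells held no UMI of most of these genes. Nfkbiz had a UMI in 43.1% of cells, Malt1 in 14.1%, Rel in 11.8%, Rc3h1 in 8.68%, Zc3h12a in 8.58%, Rc3h2 in 6.77%, Zc3h12d in 6.09% and Nfkbid in 3.19%. After thinning to 1000 UMIs per cell, which left out 882 shallower cells, these shares were 26.6% for Nfkbiz, 5.87% for Rel and 4.49% for Zc3h12a. Deeper cells more often hold a UMI of any gene: Zc3h12a was found in 3.53% of cells in the lowest of 5 equal depth bins and in 14.6% in the deepest. At least 1 of the 8 genes was found in all but 3497 cells, and 169 cells held UMIs of 4 or more of them.

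Each gene was found in fewer cells than a single common level would give. This was not worked out for all genes, so it is not read as particular to these genes. Rel was expected in 14.3% of cells if every cell had the same level and differed only in depth, against the 11.8% observed, and Nfkbiz was expected in 48.8% against 43.1%. Rel reached 9 UMIs in 1 cell and 5 or more in 10 cells. Nfkbiz reached 11 UMIs in 1 cell and 5 or more in 125 cells. Among these genes Zc3h12d was nearest to a common level, with 6.61% expected against 6.09% observed. The level of Rel was 78.4 CPM (66.8 to 91.3) in the shallowest of the 5 bins, between 62.5 and 68.5 CPM in the next 3, and 84.6 CPM (78.4 to 91.2) in the deepest, with no steady trend. The level of Nfkbiz was between 332 and 359 CPM in all 5 bins. Malt1 was highest in the shallowest bin, at 98.9 CPM (85.9 to 113), and lowest in the deepest, at 75.4 CPM (69.5 to 81.6).

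The genes around these 8 give the setting. Of the transcripts known to be bound by Regnase-1 or the Roquins, Tcf7, a transcription factor of naive and memory T cells, stood at 626 CPM. Batf, a transcription factor of activated T cells, stood at 588 CPM, and the costimulatory receptor Icos at 429 CPM. The cytokine transcripts on that list were scarce, with Il2 at 19.3 CPM, Tnf at 7.18 CPM and Il6 at 3 UMIs in all. Among NF-κB inhibitors, Nfkbia (IκBα) was the most abundant at 758 CPM, above Nfkbiz, while Nfkbie stood at 13.6 CPM. The NF-κB subunits Nfkb1 and Rela stood at 124 and 122 CPM, above Rel at 73.2 CPM, and Relb and Nfkb2 at 31.1 and 30.1 CPM. Bcl10, which encodes a partner of MALT1, stood at 54.2 CPM, beside Malt1 at 81.4 CPM. The other family of RNA-decay factors was more abundant than Regnase-1 and the Roquins, with Zfp36l2 at 1008 CPM, Zfp36 at 355 CPM and Zfp36l1 at 235 CPM.

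Families were defined as cells with exactly 1 productive T cell receptor beta chain (TRB) that share its CDR3 nucleotide sequence, and are named here by V and J gene. There were 12 families of 50 or more cells, which together hold 2614 of the 3879 single-TRB cells. Cells of a family share a receptor, may share a mouse and an edit, and are not replicates. Each family was set against all other single-TRB cells, and a fold of at least 1.5, or at most 0.667, is called here a difference of size when both sides together hold at least 100 UMIs. By this measure 28 of the 96 pairs of a gene and a family differed, 29.2%, and so did 29.3% of the 93432 pairs over all genes. This share is that of any gene at this depth, and most of the calls for the 8 genes rest on few UMIs.

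Nfkbiz had the UMIs to be ordered. Its level was 497 CPM (409 to 599) in TRBV12-1 TRBJ2-4 (77 cells), 476 CPM (387 to 580) in TRBV17 TRBJ2-7 (100 cells), 458 CPM (377 to 552) in TRBV13-3 TRBJ2-1 (119 cells) and 419 CPM (390 to 448) in TRBV15 TRBJ1-1, the largest family with 882 cells. The middle of the order held TRBV29 TRBJ1-1 at 381 CPM, TRBV13-3 TRBJ2-7 at 370 CPM, TRBV15 TRBJ2-5 at 348 CPM, TRBV12-2 TRBJ1-1 at 286 CPM and TRBV14 TRBJ1-4 at 283 CPM. At the low end were TRBV12-2+TRBV13-2 TRBJ2-3, the second largest family with 600 cells, at 265 CPM (240 to 291), TRBV12-2+TRBV13-2 TRBJ2-5 at 253 CPM and TRBV17 TRBJ1-1 (200 cells) at 166 CPM (132 to 206). The highest level was 2.99 times the lowest (2.23 to 4.03), and 4.26 times after each cell was thinned to 1000 UMIs. Of the 11 pairs of neighbours in this order, 10 had a ratio whose interval includes 1. For each of the other 7 genes all 11 did. The 1265 single-TRB cells outside these families had 342 CPM (320 to 365).

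TRBV17 TRBJ1-1 was low in several of the NF-κB transcripts and not in Zc3h12a. Nfkbiz was found there at 166 CPM against 354 CPM in other single-TRB cells, a fold of 0.470 (0.373 to 0.585). Rel stood at 40.1 CPM in that family against 75.1 CPM, a fold of 0.534 (0.324 to 0.831). Zc3h12a stood at 62.1 CPM in that family against 48.8 CPM, a fold of 1.27 (0.853 to 1.83), and Malt1 at 78.1 CPM against 79.3 CPM. In all, 5 of the 8 genes were lower by the fold of 1.5 and 0 higher, where 22.3% of all genes tested were past the fold and 15.5% lower. The other calls were Rc3h1 at a fold of 0.622, Rc3h2 at 0.639 and Nfkbid at 0.550, whose intervals include 1. Beside these, Bcl3, a nuclear IκB protein, had a fold of 0.619 (0.412 to 0.896), Icos 0.703 (0.598 to 0.821) and Ctla4 0.676 (0.486 to 0.916). Not all related genes were low there. Of 11 NF-κB subunits and inhibitors 1 was higher and 4 lower past the fold, with a median of 0.845. Of 15 NF-κB target genes tested 2 were higher and 2 lower, with a median of 0.908. Of 14 genes from the receptor to NF-κB 1 was higher and 0 lower, with a median of 1.02. The median over all genes was 0.963. The heat shock gene Hspa1a, a gene of handling stress, was also low there, at 369 CPM against 1059 CPM, and its part in these folds was not tested.

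The largest family, TRBV15 TRBJ1-1, had none of the 8 genes past the fold of 1.5, where 10.4% of all genes tested were. Nfkbiz stood at 419 CPM in that family against 322 CPM in other single-TRB cells, a fold of 1.30 (1.20 to 1.41), and Zc3h12a at 56.2 CPM against 47.7 CPM, a fold of 1.18 (0.940 to 1.47). Other NF-κB and target transcripts differed there in both directions. Nfkb2, which encodes the p100 precursor of the noncanonical pathway, had a fold of 1.80 (1.40 to 2.31) and Bcl3 1.56 (1.33 to 1.81), while Nfkbia had 0.900 (0.848 to 0.956). Of 15 NF-κB target genes tested, 1 was higher and 2 lower past the fold, with a median of 0.954. Among them the chemokine Ccl4 stood at 4.64 CPM in that family against 29.5 CPM, a fold of 0.158 (0.071 to 0.305). Icos stood at 826 CPM in that family against 367 CPM, a fold of 2.25 (2.11 to 2.40), and Ctla4 at 266 CPM against 85.3 CPM, a fold of 3.12 (2.77 to 3.52). Tcf7, another transcript on the same list of bound transcripts, had a fold of 0.559 (0.516 to 0.604). That list thus held genes of both directions in this family, with 2 of 10 higher, 1 of 10 lower and a median fold of 1.10, where the median over all genes was 1.02. Of 12 immediate early and heat shock genes tested, 0 were higher and 3 lower past the fold, with a median of 0.875. Jun and Fos were among those lower, at folds of 0.566 and 0.659. The cells on the other side include the second largest family, where these transcripts made up 1.02% of UMIs. Their share in the largest family, 0.607%, lay within the 0.556% to 0.795% of the remaining families. These folds are therefore not read as particular to this family.

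The second largest family, TRBV12-2+TRBV13-2 TRBJ2-3, had Nfkbid past the fold of 1.5 and no other of the 8 genes, where 12.9% of all genes tested were past it. Nfkbid stood at 24.5 CPM in that family (40 UMIs) against 16.2 CPM in other single-TRB cells, a fold of 1.51 (1.03 to 2.18). Malt1 was also higher in that family, at 98.6 CPM against 74.8 CPM and a fold of 1.32 (1.10 to 1.57). Nfkbiz and Rel were lower, both with a fold of 0.733, the first with an interval of 0.661 to 0.812 and the second of 0.581 to 0.915. Among NF-κB subunits and inhibitors 4 of 11 were lower past the fold, with Nfkb1 at 0.622, Nfkb2 at 0.642, Relb at 0.648 and Bcl3 at 0.634. The activation marker Tnfrsf9 (4-1BB) was lower as well, at 15.9 CPM in that family against 39.8 CPM. This family had the highest summed share of immediate early and heat shock transcripts of the 12, 1.02% of UMIs, where the other families had 0.556% to 0.795%. Hspa1a stood at 2031 CPM in it against 789 CPM. In this family Nfkb1, Nfkb2, Relb and Bcl3 were lower and Hspa1a higher, and the part of the heat shock transcripts in these folds was not tested.

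**Figure D2:**
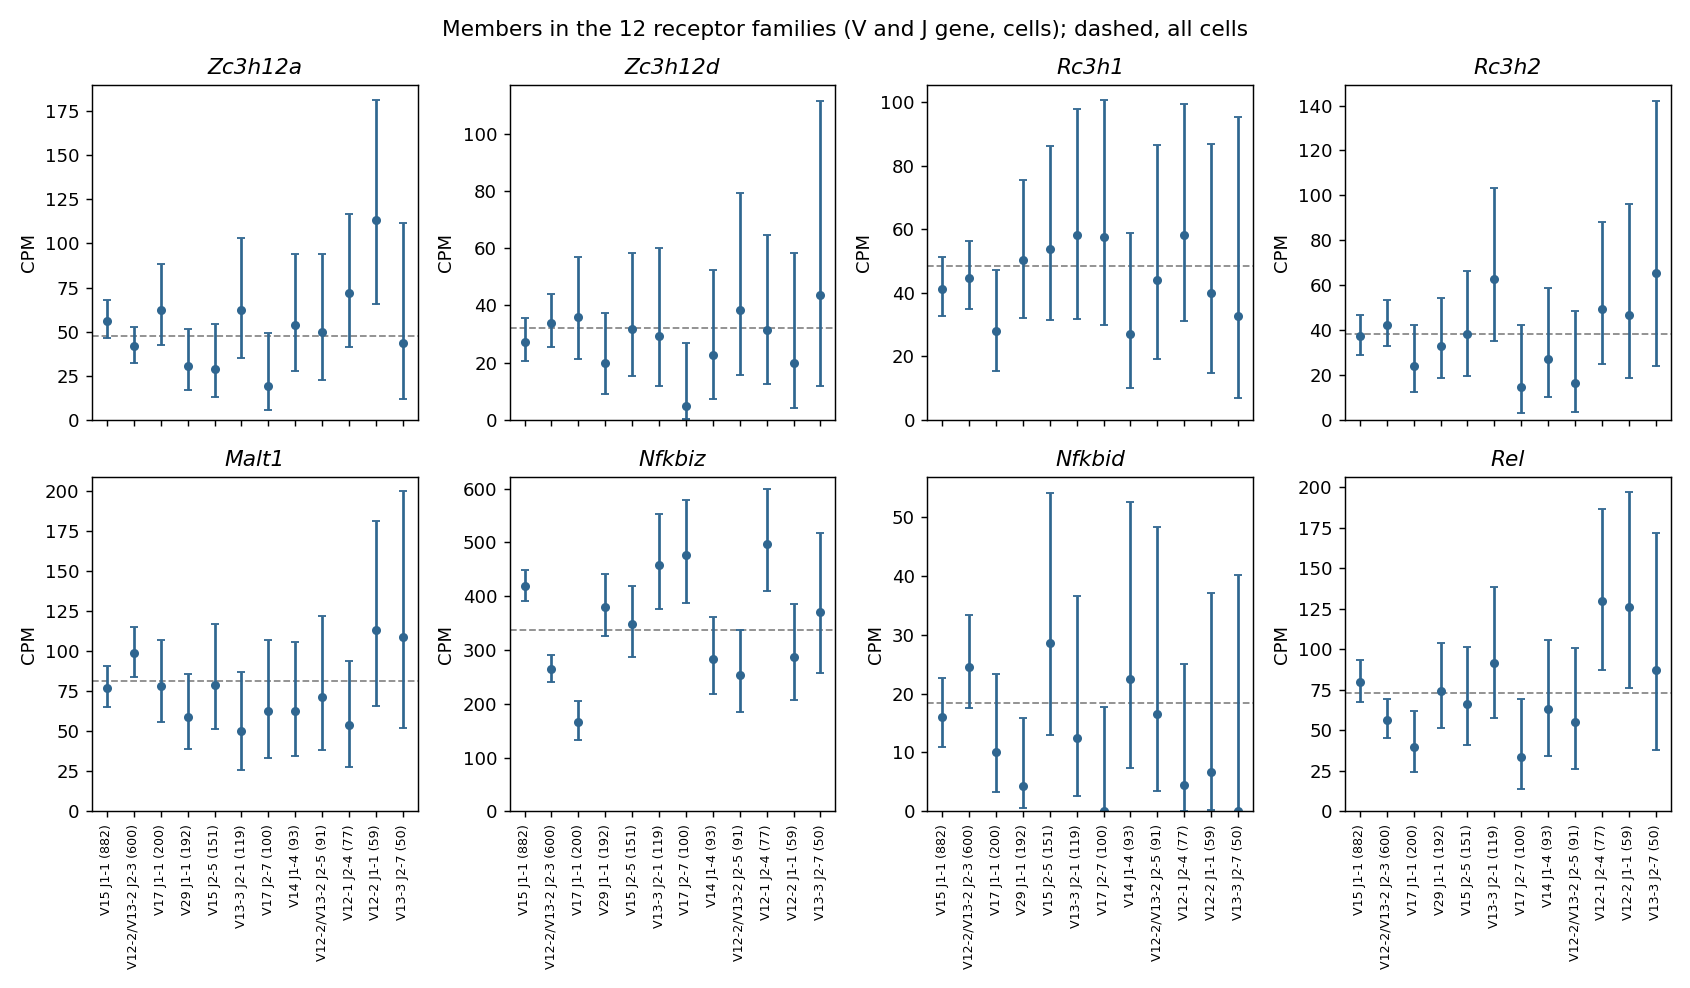
Level of each of the 8 genes in CPM (vertical axes, from 0) in the 12 receptor families, from the largest on the left to the smallest on the right, with V and J gene and number of cells. Points are summed counts with exact Poisson 95% intervals, and the dashed line is the level over all cells; Nfkbiz ranges from 166 to 497 CPM, while the intervals of the scarcer genes mostly reach the line.

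Zc3h12a itself was highest in TRBV12-2 TRBJ1-1 (59 cells), at 113 CPM (65.9 to 181) from 17 UMIs. Other single-TRB cells had 48.5 CPM, a fold of 2.33 (1.35 to 3.78). Rel was also high there, at 126 CPM (76.1 to 197), against 72.2 CPM in the other cells, a fold of 1.75 (1.05 to 2.76). In this family 2 of the 8 genes were past the fold higher and 2 lower, where 40.1% of all genes tested were past it. TRBV12-1 TRBJ2-4, with 2 of the 8 genes past the fold where 36.2% of all genes were, was the other family with high Rel, at 130 CPM (87.0 to 187) against 71.6 CPM, a fold of 1.81 (1.21 to 2.63). Zc3h12a stood at 71.7 CPM (41.0 to 116) in that family. Zc3h12a was lowest in TRBV17 TRBJ2-7, at 19.2 CPM (5.24 to 49.3) from 4 UMIs, where Rel stood at 33.7 CPM (13.5 to 69.4), Zc3h12d had 1 UMI and Nfkbid 0 UMIs, which allows up to 14.4 CPM. In all, 5 of the 8 genes were lower there by the fold of 1.5, where 33.1% of all genes tested were past it and 20.3% lower. Nfkbiz stood at 476 CPM in that same family, a fold of 1.40 (1.14 to 1.71) over other single-TRB cells.

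The other families added calls that mostly rest on few UMIs. TRBV29 TRBJ1-1 had 3 of the 8 genes lower past the fold, Zc3h12a, Zc3h12d and Nfkbid, where 20.4% of all genes tested were past it and 12.7% lower. Zc3h12a stood there at 30.6 CPM (16.8 to 51.4) from 14 UMIs, and Nfkbid had 2 UMIs. TRBV15 TRBJ2-5 had Zc3h12a lower, at 28.5 CPM from 9 UMIs, and Nfkbid higher, 2 of 8 where 26.9% of all genes were past the fold. TRBV13-3 TRBJ2-1 had Rc3h2 higher, at 62.5 CPM from 15 UMIs, and Malt1 lower, with 12 UMIs, 2 of 8 where 31.4% were. TRBV14 TRBJ1-4 had Rc3h1 lower, 1 of 8 where 34.5% were, and TRBV12-2+TRBV13-2 TRBJ2-5 had Rc3h2 lower, 1 of 8 where 35.9% were. In the smallest, TRBV13-3 TRBJ2-7, Rc3h2 was higher on 6 UMIs and Nfkbid had 0 UMIs, 2 of 8 where 47.6% were. In each of these families the share of the 8 genes past the fold was near or under that of all genes, except TRBV29 TRBJ1-1.

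As a description over the 12 families, which share a library and differ in depth and size, genes were ranked by the Pearson correlation of log2(CPM + 10) with each member. Only the 4 members with at least 300 UMIs in the families were ranked, against 3394 genes. Nfkbiz was most like Ncor1, Sra1 and Pde8a (r of 0.863, 0.798 and 0.795), and Rel most like Ftl1, Metap2 and Foxo1 (0.868, 0.850 and 0.848). Zc3h12a was most like Chchd3, Serbp1 and Rsrc2 (0.857, 0.832 and 0.802). Malt1 was most like Puf60, Sf3b6 and Cmc1 (0.848, 0.801 and 0.785). None of the 4 ranked members was among the leading genes of another. Zc3h12d, Rc3h1, Rc3h2 and Nfkbid had under 300 UMIs in the families and could not appear. Between pairs of members, r ran from -0.460 for Rc3h1 with Malt1 to 0.778 for Rc3h2 with Rel. It was 0.709 for Rc3h1 with Nfkbiz and 0.651 for Zc3h12a with Rel.

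Between cells in which a Zc3h12a UMI was found and depth-matched cells without one, the other 7 genes had folds of 1.05 to 1.29, and for all but Rel the counting interval includes 1. The largest were Nfkbid and Rel, both at 1.29, and the smallest Nfkbiz at 1.05 and Malt1 at 1.07. None of the 7 reached the fold of 1.5. Outside the 8 genes, Nfkb2 (1.73) and Tnfrsf9 (1.62) were among the 10 largest folds of all genes with enough UMIs.

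A Zc3h12a UMI was found in 887 cells. Their median depth was 2395 UMIs against 1882 UMIs in cells without one. Each was therefore paired with 3 cells without a Zc3h12a UMI of nearest depth, within 5%, which matched 882 cells with 2646 cells without at median depths of 2392 and 2391 UMIs. Having no Zc3h12a UMI at this depth does not mean that a cell lacks the transcript, so the cells without one include expressing cells. The median mitochondrial share was 3.35% in cells with a UMI and 3.44% in cells without. Immediate early and heat shock transcripts were 0.690% of UMIs with and 0.705% without. The largest receptor family made up 10.4% of cells with a UMI and 7.90% of cells without.

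Of the 7 other genes, 0 passed the fold of 1.5 in either direction, where 2.90% of the 7925 genes tested did, 1.29% higher and 1.62% lower. All 7 folds were above 1, with a median of 1.17, where the median over all genes was 1.01 and 52.3% of them were above 1. Rel stood at 94.7 CPM in cells with a Zc3h12a UMI and 73.6 CPM in cells without, a fold of 1.29 (1.10 to 1.51). Nfkbid stood at 21.4 CPM with and 16.6 CPM without, from 50 and 116 UMIs, a fold of 1.29 (0.908 to 1.81). Over the other ways of matching and filtering cells, apart from the split by Zc3h12a UMIs, Rel stood between 1.26 and 1.49. After thinning to 1000 UMIs its fold was 1.37 (0.957 to 1.90), an interval that includes 1.

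The regulators followed with smaller folds. Rc3h1 stood at 52.3 CPM in cells with a Zc3h12a UMI and 44.2 CPM in cells without, a fold of 1.18 (0.951 to 1.46), and 0.814 (0.501 to 1.28) with cells matched within receptor families. Zc3h12d stood at 31.3 CPM with and 26.8 CPM without, a fold of 1.17 (0.880 to 1.54), and the fold was 0.515 (0.205 to 1.08) when status and counts were taken after thinning each cell to 1000 UMIs. Rc3h2 stood at 43.7 CPM with and 38.2 CPM without, a fold of 1.14 (0.902 to 1.44). Malt1 stood at 80.6 CPM with and 75.4 CPM without, a fold of 1.07 (0.900 to 1.26). Nfkbiz, the most precisely measured, stood at 350 CPM with and 333 CPM without, a fold of 1.05 (0.968 to 1.14).

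**Figure D3:**
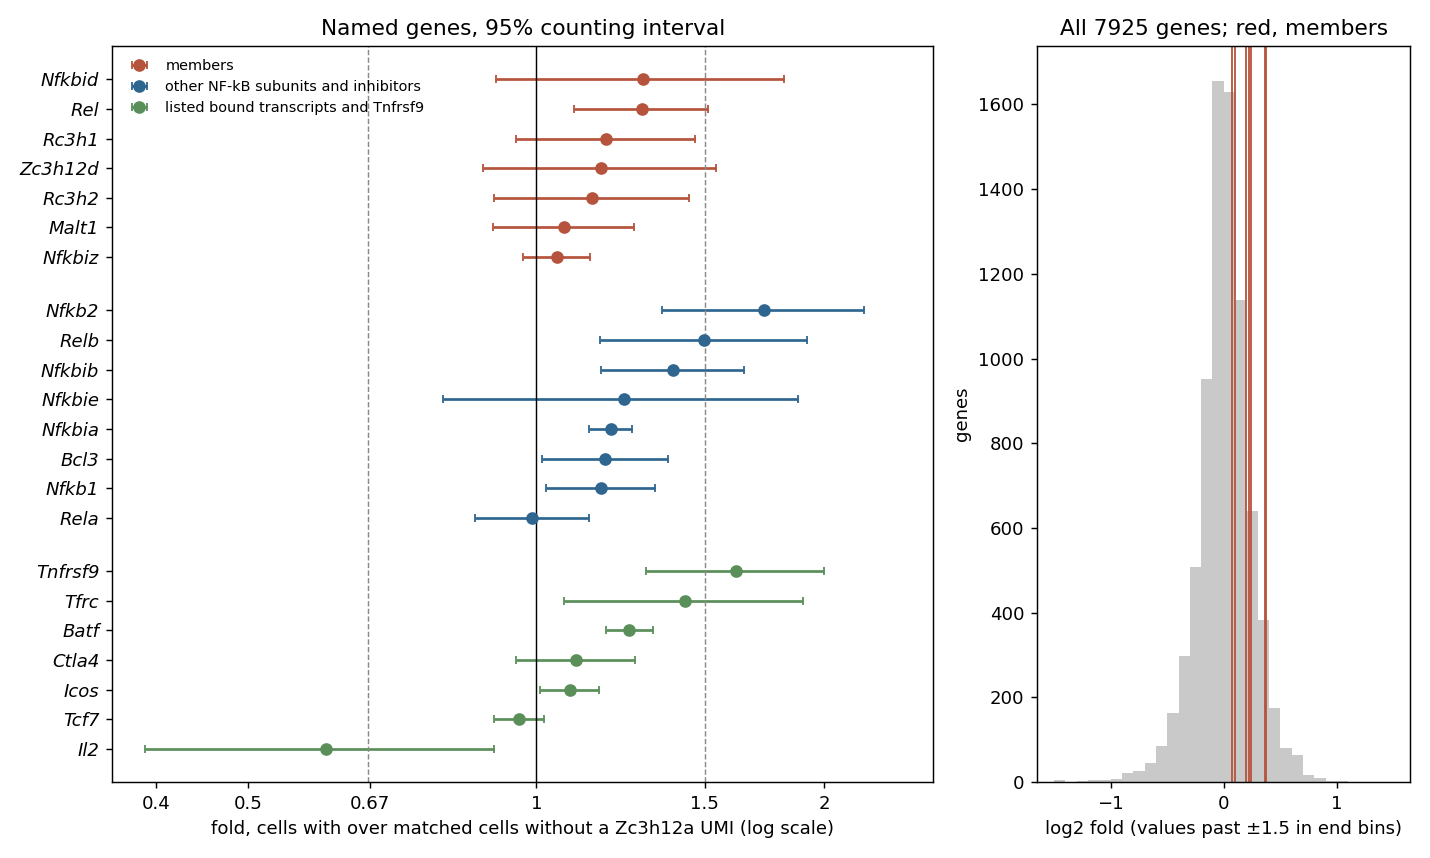
Left, fold of cells with a Zc3h12a UMI over depth-matched cells without one, on a log axis with 95% counting intervals, for the 7 other genes, the other NF-κB subunits and inhibitors, and listed bound transcripts with Tnfrsf9; dashed lines mark folds of 1.5 and 0.667. Right, log2 fold of all 7925 genes tested, with the 7 genes as red lines, all to the right of 0; Nfkb2 and Tnfrsf9 lie past 1.5 and Il2 past 0.667.

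The wider NF-κB system showed larger folds than the 7 genes in places. Of the 11 NF-κB subunits and inhibitors, 10 were above 1, with a median of 1.24, and 1 passed the fold of 1.5. Over all genes tested 52.3% were above 1 and 1.29% passed the fold higher. The 11 include Rel, Nfkbid and Nfkbiz, which are also among the 7 genes, so this count is not separate from theirs. That gene was Nfkb2, at 46.7 CPM in cells with a Zc3h12a UMI and 27.0 CPM in cells without, a fold of 1.73 (1.35 to 2.2), which was 1.31 with 1 matched cell each. Relb, the partner of the Nfkb2 product in the noncanonical pathway, stood at 42.4 CPM with and 28.3 CPM without, a fold just under 1.5 (1.16 to 1.92), and 1.11 with cells matched within receptor families. Nfkbib had a fold of 1.39 (1.17 to 1.65), Nfkbia 1.20 (1.14 to 1.26), Bcl3 1.18 (1.01 to 1.37) and Nfkb1 1.17 (1.02 to 1.33). After thinning to 1000 UMIs, Nfkb1 stood at 0.749 (0.535 to 1.02) and Nfkbia at 0.999 (0.891 to 1.12). Rela was the exception, at 0.991 (0.863 to 1.13).

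Of 15 NF-κB target genes tested, 14 were above 1, with a median of 1.17, 2 past the fold higher and 1 lower. The chemokine Ccl3 stood at 25.3 CPM with and 15.9 CPM without, a fold of 1.59 (1.14 to 2.2), and Il2, which encodes interleukin-2, at 12.4 CPM with and 20.6 CPM without, a fold of 0.603 (0.390 to 0.904). With cells matched within receptor families, Ccl3 had a fold of 3.22 (1.41 to 7.45) and Il2 of 0.817 (0.344 to 1.74). Il2 is also on the list of bound transcripts, where 7 of 9 were above 1, 0 past the fold higher and 1 lower, with a median of 1.10. On that list Tfrc, the transferrin receptor, had a fold of 1.43 (1.07 to 1.90), Batf 1.25 (1.18 to 1.32), Ctla4 1.10 (0.953 to 1.27), Icos 1.08 (1.01 to 1.16) and Tcf7 0.959 (0.902 to 1.02). These lists share genes, and the bound transcripts include Rel, Nfkbiz and Nfkbid, so their counts are not separate from each other or from the members.

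Of the 15 genes from the receptor to NF-κB, 8 were above 1 and 0 passed the fold, with a median of 1.00 and Bcl10 at 1.01. Of the 10 MALT1 substrates other than Zc3h12a, 7 were above 1 and 0 passed the fold, with a median of 1.10. Malt1 is in the first of these lists, and Zc3h12d, Rc3h1, Rc3h2 and Nfkbid are in the second, so members are counted again. Among 9 other genes of RNA decay, 5 were above 1 and 0 passed, with a median of 1.03. Of the 9 receptor signal genes tested, 7 were above 1 and 2 passed higher, with a median of 1.11. These were Tnfrsf9, at 58.7 CPM with and 36.3 CPM without, a fold of 1.62 (1.30 to 2.00), and Egr3, a transcription factor induced by receptor signals, at a fold of 1.61 (1.04 to 2.47). Tnfrsf9 was at 1.30 (1.00 to 1.69) with 1 matched cell each, and Egr3 at 0.665 (0.0700 to 3.22) with cells matched within receptor families. The 12 immediate early and heat shock genes had a median of 1.00, with Jun at 0.881 (0.826 to 0.940) and Fos at 0.910 (0.845 to 0.980).

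Over all genes with at least 200 UMIs on both sides together, the largest fold was that of Mt1, a metallothionein, at 1.80 (1.5 to 2.15). Of its UMIs on the side with Zc3h12a, 83.7% were in 10 cells, and its fold was 0.544 (0.136 to 1.60) with cells matched within receptor families. Next came Nfkb2, then Asnsd1 (1.64), Agpat2 (1.62), Dis3 (1.62), Tnfrsf9, Rfxank (1.57), Gm13212 (1.57), Pnpt1 (1.56) and Mrps18a (1.56). Dis3 and Pnpt1 encode 3′ to 5′ exoribonucleases. The smallest folds were those of the B and plasma cell transcripts Jchain (0.0404), Cd74 (0.101) and Igkc (0.148). Ighm (0.563) was also among the 10 smallest, above Usf3, Stmn1 and Ago1. Of the Igkc UMIs on the side without Zc3h12a, 88.3% were in 10 cells. With cells of 2 or more B cell markers left out, Igkc had a fold of 1.01 (0.816 to 1.23) and Jchain 1.16 (0.411 to 2.92). The other 6 smallest were Usf3 (0.463), Stmn1 (0.522), Ago1 (0.539), Prg4 (0.564), Chchd10 (0.571) and Thap11 (0.615).

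Cells with more Zc3h12a UMIs had larger folds for some of these genes, a split made partly after the data had been seen. Cells with exactly 1 Zc3h12a UMI (747 matched to 2241) had Rel at 82.8 CPM against 73.2 CPM in cells without, a fold of 1.13 (0.937 to 1.36). Cells with 2 or more (136 matched to 408) had Rel at 149 CPM against 75.9 CPM, a fold of 1.97 (1.40 to 2.74). Tnfrsf9 had a fold of 1.38 (1.07 to 1.76) at 1 UMI and 2.68 (1.72 to 4.15) at 2 or more, and Relb 1.38 (1.04 to 1.81) and 3.0 (1.58 to 5.67). Nfkb2 differed little, at 1.62 (1.24 to 2.11) and 1.76 (0.961 to 3.15). Nfkbia, with many more UMIs, was also near the same at both, at 1.21 (1.14 to 1.28) and 1.22 (1.08 to 1.38). Batf stood at 1.23 (1.16 to 1.31) and 1.35 (1.18 to 1.55), and Nfkbib at 1.34 (1.11 to 1.62) and 1.64 (1.09 to 2.45). Tfrc stood at 1.38 (0.989 to 1.90) and 2.07 (1.07 to 3.93, from 18 and 26 UMIs).

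Among the other members, Nfkbiz had a fold of 0.993 (0.906 to 1.09) at 1 UMI and 1.37 (1.14 to 1.63) at 2 or more. Nfkbid was at 1.15 and 2.35 (0.967 to 5.58, from 11 and 14 UMIs), and Rc3h1 at 1.09 and 1.73 (1.03 to 2.87). Rc3h2 stood at 1.27 (0.982 to 1.64) and 0.736 (0.379 to 1.34). Both splits draw on the same cells without a UMI, and the difference between them was not tested. At 2 or more UMIs Relb, Nfkb2, Tnfrsf9, Nfkbid, Rc3h1, Rc3h2 and Zc3h12d each had under 100 UMIs on both sides together. Mt1 had a fold of 1.09 (0.867 to 1.36) at 1 UMI and 10.3 (6.54 to 16.8, from 86 and 25 UMIs) at 2 or more. In the main comparison 1 cell held 49 of the 196 Mt1 UMIs on the side with Zc3h12a. The counting interval does not cover UMIs that lie in few cells.

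**Figure D4:**
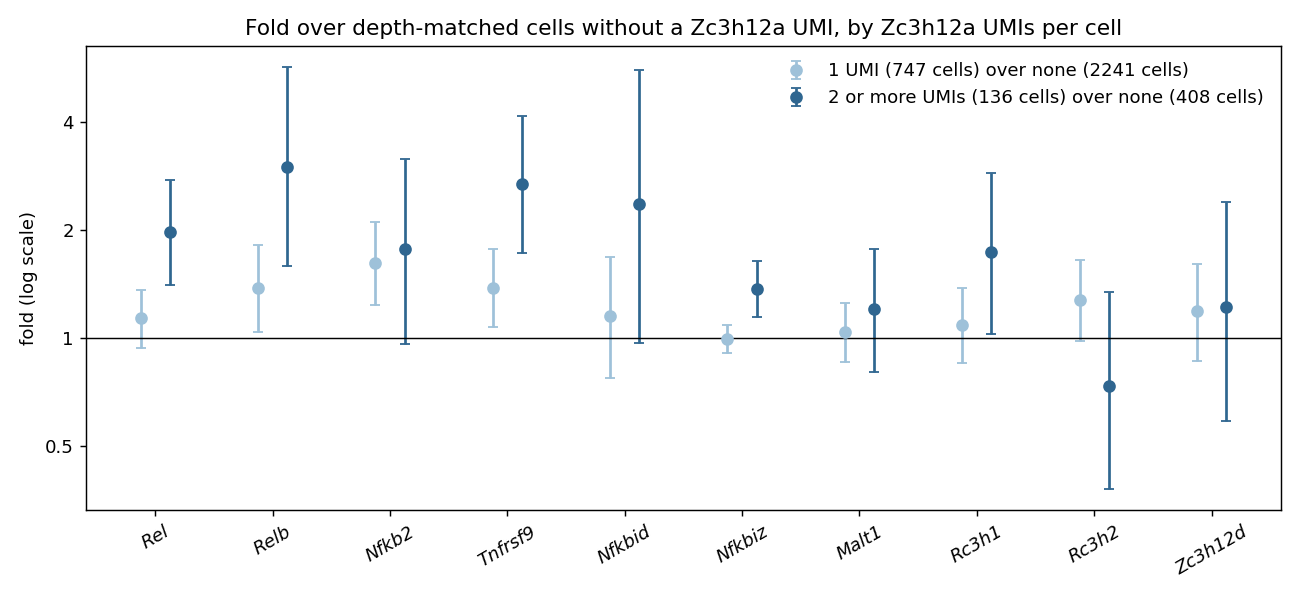
Fold over depth-matched cells without a Zc3h12a UMI, on a log axis with 95% counting intervals, for cells with 1 UMI and for cells with 2 or more. Rel stands at 1.13 and 1.97, Tnfrsf9 at 1.38 and 2.68 and Relb at 1.38 and 3.0, while Nfkb2 stands at 1.62 and 1.76 and Rc3h2 at 1.27 and 0.736.

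Pairs of the 8 genes were found in the same cell about as often as depth alone gives. Over the 28 pairs, the median ratio of observed to expected cells, with expected numbers from 20 bins of depth, was 1.01, and 15 of 28 were above 1. The highest was Malt1 with Nfkbid, in 73 cells against 55.5 expected, a ratio of 1.32 (1.03 to 1.65). Pairs of Zc3h12a followed, with Nfkbid in 44 cells against 35.1 expected (1.26, 0.912 to 1.68), with Rc3h2 in 88 against 71.7 (1.23, 0.984 to 1.51) and with Rel in 150 against 128 (1.17, 0.991 to 1.37). Nfkbiz and Rel were found together in 656 cells against 602 expected, a ratio of 1.09 (1.01 to 1.18). The Roquins were not found together more often than expected, in 63 cells against 71.7 (0.879, 0.675 to 1.12). The lowest ratio was that of Rc3h2 with Nfkbid, in 20 cells against 27.6 (0.724, 0.442 to 1.12). These ratios describe sparse counts in 1 library.

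**Figure D5:**
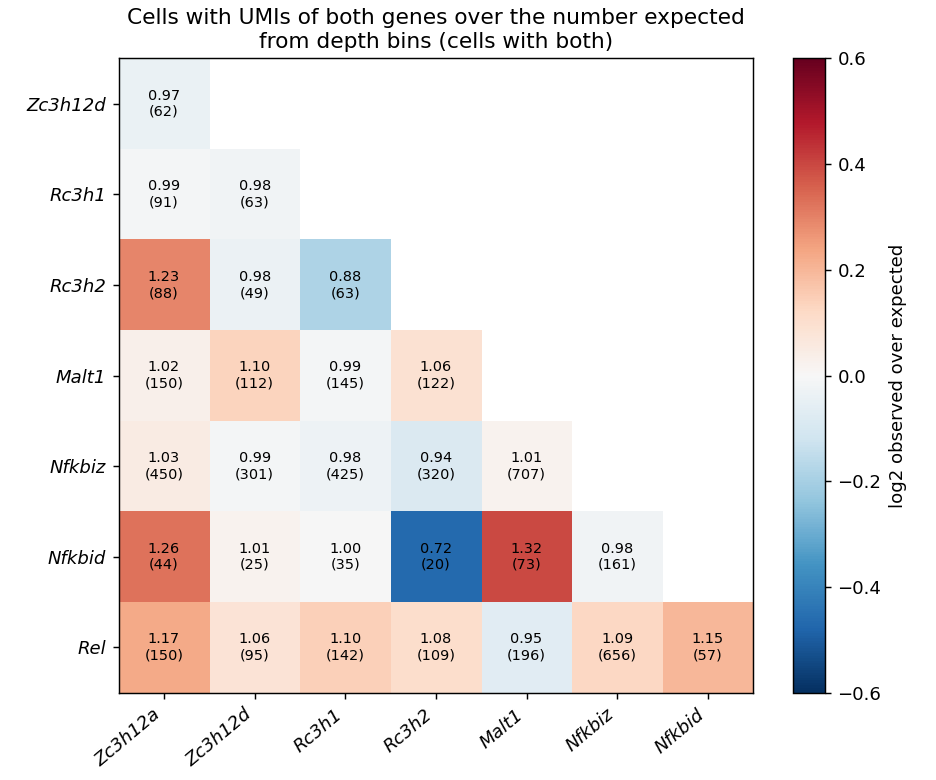
Each square gives, for a pair of the 8 genes, the cells with UMIs of both over the number expected from 20 bins of depth, with the observed number of cells in brackets and the colour on a log2 scale. Values range from 0.724 for Rc3h2 with Nfkbid to 1.32 for Malt1 with Nfkbid.

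The same depth matching, with 1 cell without a UMI for each cell with one, was run for Rel, Nfkbiz and Malt1 after the data had been seen. Cells with a Rel UMI (1220 matched) had higher receptor signal transcripts than cells without. Egr2 stood at 24.1 CPM with and 6.63 CPM without, a fold of 3.63 (2.24 to 6.11), Egr3 at 21.7 CPM with and 6.63 CPM without, a fold of 3.27 (2.00 to 5.53), and the orphan nuclear receptor Nr4a3 had a fold of 1.86 (1.30 to 2.67). Of the receptor signal list 4 of the 8 genes tested were past the fold of 1.5 higher and 8 of 8 above 1, where 2.01% of all 7048 genes tested were past it, 1.21% higher and 0.809% lower. The list's median was 1.47 and that of all genes 1.01. The 4 were Egr1 (1.55), Egr2, Nr4a1 (1.61) and Nr4a3, while Egr3 had under 100 UMIs. Nfkbiz stood at 399 CPM with a Rel UMI and 312 CPM without, a fold of 1.28 (1.18 to 1.39), while Malt1 had 0.905 (0.760 to 1.08). Cells with at least 1 UMI of Nfkbiz (4088 matched) also had higher receptor signal transcripts: 10 of 10 genes on that list were above 1, with a median of 1.38, 2 past the fold higher (Egr3 at 2.63 and Nr4a1 at 1.59), where 1.30% of all 9261 genes were past it, 0.767% higher and 0.529% lower, and Rel at 1.36 (1.22 to 1.52).

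In cells with a Malt1 UMI (1460 matched), 1 of the 7 receptor signal genes tested was above 1 and 1 was past the fold lower, Nr4a1 at 24.7 CPM with and 38.4 CPM without, a fold of 0.643 (0.489 to 0.841), where 1.56% of all 7349 genes were past it, 0.857% higher and 0.708% lower. Nfkbid was the member with the largest fold in these cells, at 25.2 CPM with and 16.6 CPM without, a fold of 1.51 (1.09 to 2.12). Immunoglobulin transcripts differed in these splits too: Igkc had a fold of 0.118 for Rel, 2.12 for Nfkbiz and 6.62 for Malt1. Jchain had a fold of 0.0218 for Rel, 6.67 for Nfkbiz and 45.2 for Malt1. These folds differ in direction between Rel and the other 2 genes, and their part was not tested. A single cell can set such folds. In the comparison by Zc3h12a UMI, 1 cell held 440 of the 519 Jchain UMIs on the side without Zc3h12a. For Igkc the largest count in 1 cell of that side was 2202 of 3326 UMIs. How many cells hold these UMIs in the Rel, Nfkbiz and Malt1 splits was not counted. The differences between the splits were not tested.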

How the data were processed

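One RNA library and 1 receptor library from the same sorted cells were analysed. The values deposited by the authors are raw counts of UMIs, not normalized. Per the submitters' processing notes, the tools included STAR 2.6.1a, featureCounts 2.0.1 and cutadapt 1.17, with GRCm38 as the build. No source used here says whether strand was used. The deposited contig table gives receptor chains per barcode with their UMI counts, and the deposited clonotype table a count of barcodes per clonotype.

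Of 10387 barcodes, those under 200 genes or with 20% or more mitochondrial UMIs were dropped. No doublet caller was run. Counts were summed over cells and divided by all UMIs for CPM, with exact Poisson, conditional (ratios) and Clopper-Pearson (shares) 95% intervals, which cover counting error only. Where no UMI was found, 3 counts set the upper limit. No test was run, because cells are not replicates. Python 3.11.15, numpy 2.4.6, scipy 1.17.1, pandas 2.3.3 and matplotlib 3.10.9 were used, and the depth matching was tested on simulated data.

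The members, gene lists and alternatives were chosen with earlier results of these data known. Named genes are the 8 members, genes of 8 fixed lists, the 10 largest and 10 smallest folds among genes with at least 200 UMIs, and the 3 genes most like each member over families. Alternatives changed the cell filter, depth matching, thinning, family definition, UMI minimum and fold. RefSeq (GRCm38.p6) places snoRNA or miRNA genes within Zc3h12d and Rc3h2, and no other gene over the other 6. Sequence of Malt1 and Nfkbiz is not used here.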

Additional observations from a re-analysis of the deposited data

How the results depend on the processing

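Over the alternatives, 140 values that answer a comparison stayed within the main counting interval, or within 1.5 times for counts, and 23 moved; for single genes, 766 stayed, 94 moved and 6, counted only among folds past the threshold in the main comparison, changed direction. In the comparison by Zc3h12a UMI, the number of genes past the fold, 102 higher and 128 lower, was 65 and 60 with 1 matched cell each, 198 and 304 with 20 weighted depth bins, 486 and 865 after thinning to 1000 UMIs, 210 and 318 with at least 50 UMIs per gene, 2 and 5 with at least 400, and 4 and 18 at a fold of 2. The members past the fold were 1 after thinning (Zc3h12d, lower), where 6.10% of the 7963 genes tested were higher and 10.9% lower. At 2 or more Zc3h12a UMIs 1 member was past it (Rel, higher), where 2.69% of the 2787 genes tested were higher and 3.66% lower. After thinning, Zc3h12d had a fold of 0.515 and Nfkbiz 1.18, and Rc3h1 had 0.814 when cells were matched within receptor families. At 2 or more UMIs the folds were 1.73 for Rc3h1, 0.736 for Rc3h2, 1.37 for Nfkbiz, 2.35 for Nfkbid and 1.97 for Rel. The highest over lowest family ratio of Nfkbiz was 4.26 after thinning. The 6 that changed direction included Zc3h12d in TRBV12-2 TRBJ1-1 after thinning (1.08). Within families they were Cd74 (1.66, 0.438 to 5.53), Egr3 (0.665, 0.0700 to 3.22) and Mt1 (0.544, 0.136 to 1.60). Without cells of 2 or more B cell markers they were Igkc (1.01, 0.816 to 1.23) and Jchain (1.16, 0.411 to 2.92). Each of these intervals includes 1. Among folds by Zc3h12a UMI that were not past the threshold, Zc3h12d, Nfkb1 (0.749) and Nfkbia (0.999) after thinning, Rc3h1 and Malt1 (0.991) within families, and Rc3h2 at 2 or more UMIs also crossed 1. The cause was not tested. Receptor families of at least 50 cells numbered 12 in the main definition, 14 with 2-TRB cells included and 8 as deposited clonotypes. No paired analysis was possible because there is 1 library of each kind.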
